A study of Homo sapiens with 28 samples.

Results

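The comparison described here is between empty-vector (EV) MDA-MB-231 cells after 1 day in suspension and the same cells after 5 hours in suspension. It rests on 4 of the 28 RNA-seq libraries of the series, 2 at each time, chosen by their labels alone. MDA-MB-231 is an established human triple-negative breast cancer line with mesenchymal features, and the EV cells are the control of a line that overexpresses tropomyosin 2.1 (Tpm2.1), an actin-binding protein. Both groups carried the empty vector and came from cultures kept in serum and puromycin, were held on ultra-low attachment plates, and differed in time only. Also used here, for levels or for a further comparison, were EV cells attached to culture plastic for 6 hours, EV cells at 2 and 4 days in suspension, and the non-apoptotic fraction of Tpm2.1 cells at 1 day and 5 hours, again with 2 libraries each. The EV cells in suspension were not passed over Annexin V beads, whereas the Tpm2.1 cells were, so any dying EV cells stayed in the EV libraries. All EV libraries come from 1 vector-carrying derivative of 1 cell line.

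Cells that normally grow on a matrix receive survival signals through integrins, the receptors that join the matrix to the actin cytoskeleton and to kinases such as FAK, ERK and AKT. When adherent cells lose that contact, these signals drop and many cells undergo anoikis, an apoptosis driven in part by BH3-only proteins of the BCL2 family such as BIM and BMF. Carcinoma cells often resist anoikis, and detached cells are known for a rise in oxidative stress, a slower cell cycle and a shift of metabolism. The comparison asks how the transcriptome of the control line moved between an early and a later time without attachment.

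Libraries at 1 day held 13671309 and 20278090 counts, against 15040042 and 14199713 counts at 5 hours, within the 13043529 to 27416335 counts of the series. Levels are given as CPM, which are counts scaled by TMM to a common library size, so each is relative to the other RNA of its library. Fewer cells with a transcript and less transcript per cell cannot be told apart in such bulk RNA. The 13 messenger RNAs of the mitochondrial genome took 4.09% and 4.36% of the counts at 1 day, against 3.18% and 3.10% at 5 hours, and 1.59% and 1.63% in attached EV cells. That share, a usual sign of cell and RNA quality, therefore moved with the comparison, and its part in the results below was not tested. The line's own markers were present: VIM had 765 and 766 CPM at 1 day, against 1059.8 and 1048 CPM at 5 hours, and CD44 had 289 and 306 CPM at 1 day, against 277 and 271 CPM at 5 hours. Most of them were not steady: of 10 tested markers of the line, 3 were higher and 6 lower at 1 day, with a median log2 fold change of -0.20. VIM was among the lower ones, and CD44 did not pass (edgeR adjusted p = 0.0879). Of the immune markers PTPRC, CD3E and LYZ, none had more than 2 counts in any of the 4 libraries, and the endothelial marker CDH5 and the luminal markers PGR and CDH1 likewise had at most 2 counts. Other members of these lists were present: CD14 and PECAM1 passed at low level, with log2 fold changes at 1 day over 5 hours of 0.85 and 1.20, CD14 not doing so without the first 5 hour or the second 1 day library. Of the luminal list 6 of 10 tested members were higher and 1 lower, with a median log2 fold change of 0.42, with KRT8, a simple epithelial keratin, at 277 and 269.5 CPM at 1 day, against 235 and 253 CPM at 5 hours. KRT8 changed by only 0.16 on the log2 scale, whereas 2 members of that list passed and were more than 2-fold higher. The log2 fold changes of the list ranged from -0.87 to 5.61.

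After 1 day, 6778 of 17191 genes tested (39.4%) differed from 5 hours at an adjusted p below 0.05, by the quasi-likelihood test of edgeR with Benjamini-Hochberg adjustment. Of these, 3582 (20.8%) were higher at 1 day and 3196 (18.6%) were lower. Which direction held more genes depended on the fit, with 3203 higher and 3389 lower by DESeq2, and 48.6% to 54.2% of the passing genes higher across all alternatives. A change past 2-fold was found for 966 genes (5.62%), of which 623 were higher (3.62%) and 343 lower (2.0%). The median log2 fold change over all genes tested was 0.02. In 12047 genes (70.1%) the libraries of both times did not overlap, so a lack of overlap in a gene named below sets it little apart from the rest. The labels call the libraries biological replicates without saying whether they came from separate cultures, and p values then measure how far libraries of a group scatter, which may be technical.

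The largest fall among well-measured genes was that of HMOX1, which encodes heme oxygenase, an enzyme that degrades heme and is strongly induced by oxidative and electrophilic stress. HMOX1 (chr22:35380361-35394214, plus strand, hg38) had 20.6 and 20.8 CPM at 1 day, against 360.0 and 382 CPM at 5 hours (log2 fold change -4.16, SE 0.16, edgeR adjusted p = 8.13e-22). The levels at the 2 times lay far apart, and attached EV cells, with 9.84 and 9.88 CPM, as well as EV cells at 2 days, with 11 and 9.66 CPM, were near or below the level at 1 day. Next in size were MYO7B, an unconventional myosin, at -2.72 on the log2 scale, NEGR1, a neuronal adhesion protein of the immunoglobulin family, at -2.64, and MAP3K7CL at -2.57. PMEPA1, a membrane protein that is induced by TGF-beta and dampens its signalling, had 11.3 and 9.76 CPM at 1 day, against 52.9 and 56.6 CPM at 5 hours (log2 fold change -2.39, SE 0.13, edgeR adjusted p = 1.35e-17). Other genes among the 12 lowest were RELN, which encodes the matrix glycoprotein reelin, at -2.14, ADTRP at -2.10, the aldehyde oxidase AOX1 at -2.07, MPP4 at -2.05, the BMP-activated transcription factor SMAD9 at -1.88, the inducible chaperone HSPA1A at -1.83 and the interleukin 7 receptor IL7R at -1.80.

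Among the 12 highest, ABCG1, a sterol exporter, had 13.8 and 12.7 CPM at 1 day, against 1.55 and 1.19 CPM at 5 hours (log2 fold change 3.26, SE 0.23, edgeR adjusted p = 1.44e-14). It lies at chr21:42199689-42297244, plus strand. The epithelial trafficking GTPase RAB17 rose by 3.11 on the log2 scale, the monocarboxylate transporter family member SLC16A6 by 3.04, and the scaffold protein IQGAP2 by 2.96. ITGB4, which encodes the integrin beta 4 subunit of the laminin receptor of hemidesmosomes, had 59.6 and 59.7 CPM at 1 day, against 6.64 and 9.24 CPM at 5 hours (log2 fold change 2.91, SE 0.21, edgeR adjusted p = 4.58e-14). Its libraries at 1 day were nearly equal, and a lack of overlap between the times was a condition for naming it here. The complement component C3 rose by 2.76, the TRAIL decoy receptor TNFRSF10C by 2.72, the aldo-keto reductase AKR1C2 by 2.68, GPRC5C by 2.64, the teneurin TENM4 by 2.63, and the cytidine deaminases APOBEC3F and APOBEC3G, which restrict retroviruses, by 2.62 and 2.54. Several of these have close paralogs (AKR1C2, APOBEC3F, APOBEC3G, HSPA1A), and how reads shared between copies were counted is not given in the sources used here, so their single values are uncertain.

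**Figure D1:**
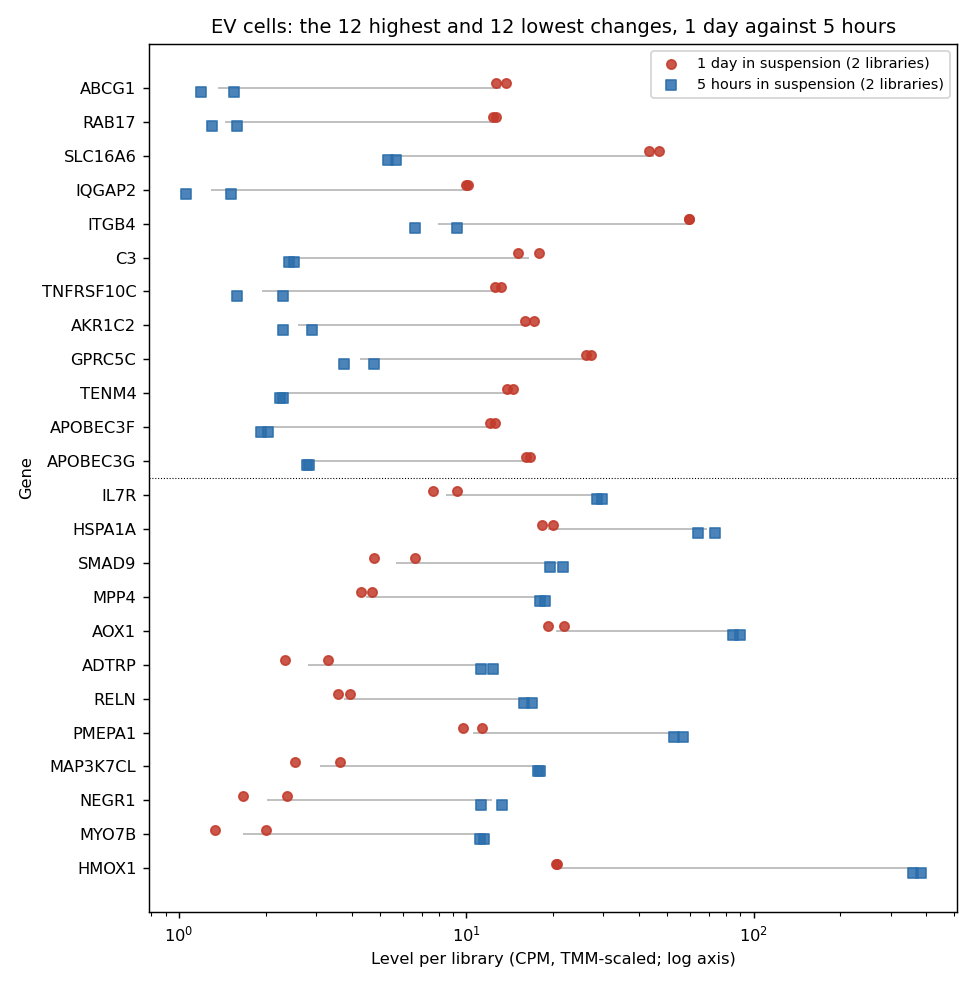
Level per library (CPM after TMM scaling, log axis) of the 12 protein-coding genes with the highest and the 12 with the lowest log2 fold change among those that passed, with at least 10 CPM in either group and no overlap of the 2 times. Red circles are the 2 libraries at 1 day, blue squares the 2 at 5 hours, and grey lines join the means. HMOX1, at the bottom, is the only one of the 24 above 300 CPM at either time.

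In absolute level, the largest gain of a protein-coding gene was that of EEF1A1, the translation elongation factor, with 15304 and 15958 CPM at 1 day, against 10974 and 11219 CPM at 5 hours (log2 fold change 0.49, SE 0.06, edgeR adjusted p = 1.80e-08). MT-CO1, MT-ND4 and MT-CO2, messenger RNAs of the mitochondrial genome, and PKM, the pyruvate kinase gene, followed. PKM had 3216 and 3295 CPM at 1 day, against 1681 and 1772 CPM at 5 hours (log2 fold change 0.91, SE 0.05, edgeR adjusted p = 3.10e-17). The largest losses among protein-coding genes were those of cytosolic and endoplasmic chaperones and of cytoplasmic actin: HSPA8 fell by 0.64 on the log2 scale, HSP90AB1 fell by 0.54, HSP90AA1 fell by 0.45, ACTG1 fell by 0.25 and HSPA5 fell by 0.94. ACTG1 had 2739 and 2748 CPM at 1 day, against 3153 and 3366 CPM at 5 hours, and attached EV cells had 5413 and 5459.6 CPM.

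Integrin genes were more often higher than lower at 1 day. Of the integrin list, 9 of 14 tested members were higher and 2 lower, with a median log2 fold change of 0.43; leaving out any 1 library left 8 to 9 higher and 0 to 1 lower. Beside ITGB4, ITGA10, a collagen-binding subunit, had 87.4 and 90.4 CPM at 1 day, against 14.4 and 17.4 CPM at 5 hours (log2 fold change 2.49, SE 0.14, edgeR adjusted p = 1.67e-17). The attached cells held 1.23 and 1.84 CPM of it. ITGB8, a subunit of a receptor for latent TGF-beta, rose by 1.43, ITGA1, a collagen-binding subunit, by 0.99, and ITGA6, the laminin-binding partner of ITGB4, by 0.90. The common partner ITGB1 had 613 and 622 CPM at 1 day, against 449 and 459.8 CPM at 5 hours (log2 fold change 0.44, SE 0.06, edgeR adjusted p = 4.50e-08). Both libraries at 1 day lay above both at 5 hours. ITGA2, a collagen-binding subunit, did not pass, with 793 and 782 CPM at 1 day, against 800.3 and 741 CPM at 5 hours (log2 fold change 0.03, edgeR adjusted p = 0.727); it stood at 98.6 and 92.8 CPM in attached cells.

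Of the matrix and matricellular list, 11 of 22 tested members were higher and 7 lower, with a median log2 fold change of 0.26. The laminin chain LAMA5 had 901 and 855 CPM at 1 day, against 217 and 223 CPM at 5 hours (log2 fold change 2.00, SE 0.09, edgeR adjusted p = 2.90e-20). LAMA3, the alpha chain of the laminin that binds ITGB4, rose by 1.38. The beaded-filament collagen genes COL6A1 and COL6A2 rose by 1.26 and 0.94. The fibrillar collagen COL1A1 ran the other way, with 33 and 29.1 CPM at 1 day, against 96.6 and 104 CPM at 5 hours (log2 fold change -1.70, SE 0.10, edgeR adjusted p = 1.43e-16). All 3 of COL12A1 (-1.33), TNC (-0.79) and COL4A1 (-0.73) were lower at 1 day. Genes of the basement membrane thus did not move together: beside COL4A1, COL4A2 fell by 0.25 (not passing without the second 1 day library) and the laminin chain LAMB3 fell by 0.37, while LAMC1 rose by 0.44.

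Of the matrix proteases and their inhibitors, 7 of 19 tested members were higher and 4 lower, with a median log2 fold change of 0.02. TIMP3, a matrix-bound inhibitor of metalloproteinases, had 384 and 384 CPM at 1 day, against 126 and 126 CPM at 5 hours (log2 fold change 1.61, SE 0.06, edgeR adjusted p = 2.17e-21). SERPINE2, a serine protease inhibitor, rose by 1.00, TIMP1 by 0.70, and the membrane-bound metalloproteinase MMP14 by 0.46. ADAMTS1 was lower by 0.70.

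Of the cell-cell adhesion list, 7 of 27 tested members were higher and 5 lower, with a median log2 fold change of 0.07, which is close to the share of all genes. JUP, the junction protein plakoglobin, stood apart from the rest of it with 65.9 and 73 CPM at 1 day, against 17.8 and 20.6 CPM at 5 hours (log2 fold change 1.86, SE 0.12, edgeR adjusted p = 1.15e-15). CTNND1, p120 catenin, rose by 0.61. The cadherin CDH4 fell to 71.8 ± 1.9 CPM at 1 day, against 156 ± 0.967 CPM at 5 hours (SD, n = 2 each; log2 fold change -1.12, SE 0.06, edgeR adjusted p = 4.65e-18), and NECTIN1, an immunoglobulin-like adhesion receptor, was lower by 1.03. The cadherins CDH1, CDH2 and CDH3 had at most 3 counts in each of the 4 libraries and were not tested.

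Genes of the actin cytoskeleton and of focal adhesions fell slightly more often than they rose: 7 of 35 tested members were higher and 15 lower, with a median log2 fold change of -0.10. Leaving out the first 5 hour library left 4 members higher. FLNC, a filamin that crosslinks actin, had 127 and 129 CPM at 1 day, against 236 and 266 CPM at 5 hours (log2 fold change -0.97, SE 0.07, edgeR adjusted p = 3.08e-14). The actin-binding calponin CNN3 was lower by 0.34 and the focal adhesion adaptor PXN fell by 0.33. The list's summed share of the deposited FPKM was 1.55% and 1.53% at 1 day, against 1.78% and 1.84% at 5 hours, and 2.77% and 2.78% in attached cells, so the step from 5 hours to 1 day was small beside the distance from attached cells. TPM2, the gene of tropomyosin 2.1, was low in EV cells, with 46.1 and 45.1 CPM at 1 day, against 34.4 and 39.5 CPM at 5 hours (log2 fold change 0.31, SE 0.10, edgeR adjusted p = 0.01); without the first 5 hour library the log2 fold change was 0.21 and did not pass (edgeR adjusted p = 0.1845).

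Targets of YAP and TAZ, the transcriptional co-activators that read cell spreading and actin tension, moved in both directions. Of this list, 6 of 23 tested members were higher and 7 lower, with a median log2 fold change of -0.04, so 13 members passed. CTGF and CYR61 were far below attached cells at both times. CTGF had 53.4 and 55.6 CPM at 1 day, against 59.9 and 60.2 CPM at 5 hours (log2 fold change -0.14, edgeR adjusted p = 0.247, and 0.029 with only the 4 libraries in the fit), and attached cells had 1565 and 1542 CPM. CYR61 had 138 and 126 CPM at 1 day, against 117 and 117 CPM at 5 hours and likewise did not pass (edgeR adjusted p = 0.103, and 0.00884 with only the 4 libraries), and attached cells had 2831 and 2697 CPM. The receptor tyrosine kinase AXL had 222 and 227 CPM at 1 day, against 379 and 381 CPM at 5 hours (log2 fold change -0.76, SE 0.06, edgeR adjusted p = 1.13e-12). ANKRD1 fell by 0.91 and the coagulation initiator F3 fell by 0.71, whereas the guanine nucleotide exchange factor ARHGEF17 rose by 0.69.

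The intermediate filament gene VIM, the vimentin of mesenchymal cells, was lower at 1 day (log2 fold change -0.46, SE 0.05, edgeR adjusted p = 4.99e-10), as were the hair keratin KRT81 (-1.76), the nuclear lamin LMNB1 (-0.72) and the transcription factors SNAI1 (-1.44) and SNAI2 (-0.85). ZEB1, another factor of the mesenchymal state, rose by 0.42, and the simple epithelial keratins KRT18 and KRT19 by 0.47 and 0.36. Over the whole list, 5 of 14 tested members were higher and 5 lower, with a median log2 fold change of -0.13; 3 members stayed higher without the first 5 hour library or without the first 1 day library.

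Genes of the EGF receptor family with its ligands, and feedback regulators of ERK, rose more often than they fell, while the immediate early genes did not. Of the EGF receptor family and its ligands, 8 of 13 tested members were higher and 2 lower, with a median log2 fold change of 0.61; without the first 5 hour library 4 members were higher, and without the second 1 day library 5 were, and 1 member was lower without any 1 library. TGFA had 57.1 and 55.6 CPM at 1 day, against 23.6 and 23 CPM at 5 hours (log2 fold change 1.27, SE 0.08, edgeR adjusted p = 1.53e-16). EGF itself rose by 1.39 from a low level, and the neuregulins NRG1 and NRG2 by 0.61 and 1.17. The 2 lower members were EREG (-0.47) and the receptor gene EGFR (-0.13). The summed share of this list in the deposited FPKM hardly moved. It was 0.0339% and 0.0339% at 1 day, against 0.0339% and 0.0338% at 5 hours. Of the ERK feedback regulators, 9 of 19 tested members were higher and 4 lower, with a median log2 fold change of 0.25. The Sprouty genes SPRY1 and SPRY4, inhibitors of receptor tyrosine kinase signalling, and DUSP6, a phosphatase that acts on ERK, rose: DUSP6 had 186 and 197 CPM at 1 day, against 62.4 and 60.6 CPM at 5 hours (log2 fold change 1.64, SE 0.07, edgeR adjusted p = 9.94e-21). SPRY1 had 43 and 44 CPM at 1 day, against 12.3 and 10.6 CPM at 5 hours (log2 fold change 1.92, SE 0.10, edgeR adjusted p = 4.65e-18). SPRY4 was higher by 0.94. DUSP10, a phosphatase of the stress kinases, was lower by 1.45, DUSP7 fell by 0.90 and DUSP1 fell by 0.81. Of the ERK feedback regulators that passed, 2 were more than 2-fold higher and 2 more than 2-fold lower, and not every lower one is named here.

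Of the immediate early genes, 3 of 25 tested members were higher and 8 lower, with a median log2 fold change of -0.18. MYC had 92.8 and 98.6 CPM at 1 day, against 159 and 165 CPM at 5 hours (log2 fold change -0.76, SE 0.06, edgeR adjusted p = 2.17e-12). JUN and SRF fell, at -0.63 and -0.39; EGR1 rose by 0.89. All 3 of MYC, JUN and SRF were higher in attached cells, where MYC stood at 283 and 275 CPM. Without the second 1 day library a lone member of the list was higher in place of 3.

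Of the PI3K and AKT pathway, 5 of 22 tested members were higher and 4 lower, with a median log2 fold change of 0.01, close to the 20.8% higher and 18.6% lower of all genes. AKT1 had 157 and 154 CPM at 1 day, against 159 and 166 CPM at 5 hours (log2 fold change -0.07) and AKT2 had 128 and 125 CPM at 1 day, against 122 and 121 CPM at 5 hours (0.06), and neither passed. The catalytic subunit gene PIK3CD rose by 0.82, TSC1 and TSC2, whose products inhibit mTORC1, by 0.27 and 0.46, and PHLPP2, a phosphatase that acts on AKT, fell by 0.68. Without the second 5 hour library 2 members were lower in place of 4. Of the targets of FOXO, factors that AKT keeps out of the nucleus, 7 of 20 tested members were higher and 3 lower, with a median log2 fold change of 0.14. PDK4, which restrains pyruvate oxidation, had 30.1 and 24.6 CPM at 1 day, against 10.2 and 9.57 CPM at 5 hours (log2 fold change 1.46, SE 0.15, edgeR adjusted p = 3.41e-10). The pseudokinase gene TRIB2 rose by 0.96, BCL6 by 0.97 and CCNG2 by 0.56, whereas GADD45B fell by 1.09 and TXNIP fell by 0.65.

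Of the Eph receptors and ephrins, which signal between neighbouring cells, 3 of 16 tested members were higher and 3 lower. That was close to the 20.8% higher and 18.6% lower of all genes, and the median log2 fold change of the list was -0.05. EPHA2, a receptor kinase, had 463 and 452 CPM at 1 day, against 202 and 213 CPM at 5 hours (log2 fold change 1.14, SE 0.05, edgeR adjusted p = 1.76e-19). Its level at 5 hours was the lowest of the EV course: attached cells had 698 and 697 CPM and cells at 2 days had 676 and 715 CPM. EPHB2 fell by 0.71 and EPHB3 fell by 0.88. Without the second 5 hour library EPHA2 alone was counted as higher.

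Genes of TGF-beta and BMP signalling were more often lower than higher at 1 day. Of the list, 5 of 20 tested members were higher and 11 lower, with a median log2 fold change of -0.41. Among those lower, ID1, a dominant-negative partner of basic helix-loop-helix factors and a BMP target, had 116 and 107 CPM at 1 day, against 303 and 369 CPM at 5 hours (log2 fold change -1.59, SE 0.10, edgeR adjusted p = 2.49e-16). ID2 fell by 1.69 and ID3 fell by 1.29. SMAD7, the inhibitory SMAD, had 13.9 and 10.9 CPM at 1 day, against 30.0 and 36.2 CPM at 5 hours (log2 fold change -1.44, SE 0.14, edgeR adjusted p = 8.75e-11). SKIL, a repressor that binds SMADs, was lower by 1.28. ID1, SMAD7 and SKIL were each higher at 5 hours than in attached cells, where ID1 had 167 and 161 CPM, SMAD7 had 14.1 and 11 CPM and SKIL had 40.1 and 45 CPM. The type II receptor gene TGFBR2 rose, with 717 and 741 CPM at 1 day, against 352 and 353 CPM at 5 hours (log2 fold change 1.05, SE 0.05, edgeR adjusted p = 1.25e-18). The latent TGF-beta binding protein genes LTBP1 and LTBP3 were higher by 0.60 and 0.41, while their relative LTBP2 fell by 0.75 and the ligand gene TGFB1 did not pass (0.01).

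**Figure D2:**
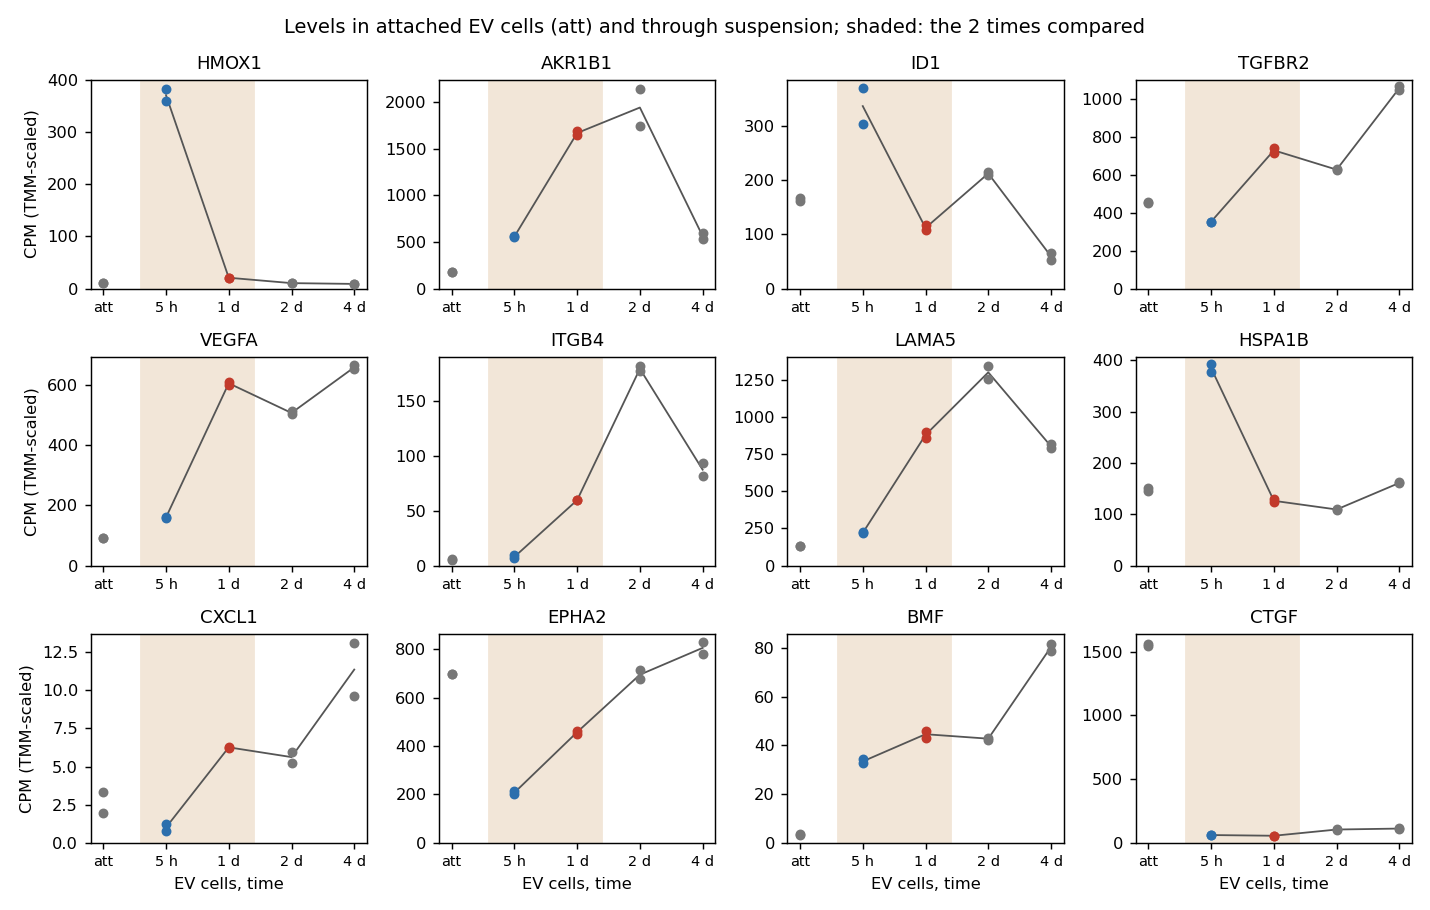
Levels (CPM after TMM scaling) of 12 genes in attached EV cells (att) and at 5 hours and 1, 2 and 4 days in suspension. Points are libraries, lines join the means of the suspended groups, and the shaded band marks the compared times, with 5 hours in blue and 1 day in red. HMOX1 and ID1 are highest at 5 hours, ITGB4 and LAMA5 at 2 days, and CTGF in attached cells.

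The BH3-only genes, whose products start mitochondrial apoptosis, did not rise as a group: 1 of 7 tested members were higher and 2 lower. Their median log2 fold change was -0.04. Of all genes, 20.8% were higher and 18.6% lower, so these few counts set the list little apart. BMF, which is activated by detachment from the actin cytoskeleton, had 46.1 and 43.1 CPM at 1 day, against 34.3 and 32.6 CPM at 5 hours (log2 fold change 0.41, SE 0.08, edgeR adjusted p = 1.27e-04), whereas attached cells had 3.1 and 3.41 CPM, so most of its distance from attached cells was present at 5 hours. BCL2L11, which encodes BIM, was lower, with 16.4 and 17.3 CPM at 1 day, against 32.5 and 32 CPM at 5 hours (log2 fold change -0.93, SE 0.10, edgeR adjusted p = 2.60e-09). The levels of the 2 genes thus moved in opposite directions. Without the first library of either time BCL2L11 alone was lower, and without the second 1 day library BMF was joined by 1 other member among the higher ones. Of the BCL2 survival genes and effectors, 3 of 8 tested members were higher and 4 lower, with a median log2 fold change of -0.13. BCL2 itself had 8.4 and 9.86 CPM at 1 day, against 20.6 and 20.6 CPM at 5 hours (log2 fold change -1.16, SE 0.14, edgeR adjusted p = 1.93e-08). BCL2A1 fell by 0.88, and BCL2L1, which encodes the survival protein BCL-XL, had 169.7 and 173 CPM at 1 day, against 138 and 136 CPM at 5 hours (log2 fold change 0.32, SE 0.06, edgeR adjusted p = 3.40e-05). Without the second 5 hour library 1 member of this list was higher in place of 3.

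Death receptors rose. Of this list, 9 of 14 tested members were higher and 1 lower, with a median log2 fold change of 0.54; the lower one, FADD, lost its call without the second library of either time. TNFRSF10B, the TRAIL receptor DR5, had 289.9 and 297 CPM at 1 day, against 153 and 158 CPM at 5 hours (log2 fold change 0.92, SE 0.06, edgeR adjusted p = 1.09e-15). TNFRSF21, the death receptor DR6, had 244 and 257 CPM at 1 day, against 109 and 112 CPM at 5 hours (log2 fold change 1.18, SE 0.07, edgeR adjusted p = 1.77e-17). CFLAR, which encodes the caspase-8 inhibitor FLIP, rose by 0.55. The decoy receptor TNFRSF10C rose as well, as given above, while the other decoy, TNFRSF10D, had 117 and 119 CPM at 1 day, against 131 and 129 CPM at 5 hours and did not pass (edgeR adjusted p = 0.0594); it passed, at a log2 fold change of -0.16, when only the 4 libraries were fitted, and by DESeq2 at -0.17. Of the caspases, apoptosome genes and their inhibitors, 3 of 18 tested members were higher and 6 lower, with a median log2 fold change of -0.05. The inhibitors XIAP and BIRC5 fell, at -0.63 and -0.90; BIRC5 is also a mitotic gene. BIRC3, an inhibitor of apoptosis that NF-kB induces, rose by 1.47. Without the first 5 hour library BIRC3 was the only member counted as higher. Of the p53 targets, 8 of 22 tested members were higher and 4 lower, with a median log2 fold change of 0.10; MDA-MB-231 carries a mutant p53. GDF15, a stress-induced cytokine, had 10.5 and 9.43 CPM at 1 day, against 2.23 and 3.04 CPM at 5 hours (log2 fold change 1.92, SE 0.23, edgeR adjusted p = 1.05e-08). The nuclease gene AEN fell by 0.85.

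Genes of the NF-kB and inflammatory list had the highest median of all lists: 17 of 25 tested members were higher and 3 lower, with a median log2 fold change of 0.99, and 10 members were more than 2-fold higher. NF-kB is a family of transcription factors held in the cytoplasm by inhibitors such as NFKBIA, and many of its target genes encode cytokines and its own subunits. IL1B, an interleukin, had 37.9 and 40.2 CPM at 1 day, against 8.56 and 10.4 CPM at 5 hours (log2 fold change 2.05, SE 0.12, edgeR adjusted p = 1.41e-16). CSF3, a colony-stimulating factor, had 99.8 and 98.5 CPM at 1 day, against 33.1 and 36.4 CPM at 5 hours (log2 fold change 1.51, SE 0.08, edgeR adjusted p = 1.29e-17). NFKB2, which encodes the p100 precursor of a subunit, had 149 and 147 CPM at 1 day, against 73.2 and 76.2 CPM at 5 hours (log2 fold change 0.99, SE 0.06, edgeR adjusted p = 1.46e-16). In all 3 both libraries at 1 day lay above both at 5 hours. The cytokine LIF rose by 0.86, the prostaglandin synthase PTGS2 by 1.41, the adhesion molecule ICAM1 by 1.25, NFKBIA by 0.72 and the chemokine CXCL8 by 1.13. CXCL1 was low throughout, with 6.23 and 6.29 CPM at 1 day, against 0.745 and 1.25 CPM at 5 hours (log2 fold change 2.65, SE 0.30, edgeR adjusted p = 2.84e-09). The 3 members that fell were IL11 (-1.06), CCL2 (-0.98) and RELA (-0.15). Of these, IL11 kept its call when any 1 library was left out, whereas CCL2, at -0.84 to -1.11, and RELA, at -0.12 to -0.17, did not pass in any of those 4 fits. The subunit gene NFKB1 did not pass, with 65.7 and 64.3 CPM at 1 day, against 67.8 and 69.1 CPM at 5 hours.

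Promoters of CXCL1 and NFKB2 are printed here because both genes rose and both carry the letters of a kappaB site. The letters searched were GGG, any 2 bases and TTTCC, a single form of the sequence that NF-kB binds. Other forms were not searched and stay in lower case. Each is the stretch of 250 bases before the gene start in RefSeq (GRCh38.p14), read in the gene's direction, with the matches on either strand in capitals. CXCL1 is read from chr4:73869143-73869392, plus strand, and NFKB2, which has 3 listed promoters, from chr10:102394328-102394577, plus strand.
CXCL1: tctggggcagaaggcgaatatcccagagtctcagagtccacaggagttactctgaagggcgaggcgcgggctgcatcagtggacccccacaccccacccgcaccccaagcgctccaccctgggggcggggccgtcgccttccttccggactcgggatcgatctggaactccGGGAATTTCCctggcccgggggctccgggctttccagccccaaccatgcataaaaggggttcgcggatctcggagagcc
NFKB2: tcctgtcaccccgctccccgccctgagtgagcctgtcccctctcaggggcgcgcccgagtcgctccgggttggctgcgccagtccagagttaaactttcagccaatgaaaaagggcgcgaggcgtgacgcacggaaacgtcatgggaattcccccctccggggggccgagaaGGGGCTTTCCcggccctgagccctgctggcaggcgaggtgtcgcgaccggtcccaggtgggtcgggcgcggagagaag
Of the 27 promoters of that length found for 21 list genes, 12 (44.4%) held a match, against 608 of 35116 promoters of all genes (1.73%). TNFAIP3, NFKB1 and CCL20 also hold a match and did not pass, with log2 fold changes of 0.05, -0.07 and 1.63. A match is a description of the letters and not a measured site. The list was made of genes assigned to NF-kB and inflammation, so a share above that of all promoters is not a result of this comparison.

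Interferon-stimulated genes and the antigen presentation machinery rose to a smaller extent. Of the interferon-stimulated genes, 15 of 30 tested members were higher and 3 lower, with a median log2 fold change of 0.38; leaving out the first library of either time left 1 member lower. STAT2, a transcription factor of type I interferon signalling, had 139 and 137 CPM at 1 day, against 73 and 66.5 CPM at 5 hours (log2 fold change 0.98, SE 0.07, edgeR adjusted p = 4.89e-15). The double-stranded RNA sensor genes OAS2 and IFIH1 rose by 1.22 and 1.16, and IFIT2 by 1.06. MX1 fell by 0.53, and without the first 5 hour or the first 1 day library it was at -0.51 or -0.46 and did not pass. Of the MHC class I and antigen processing list, 10 of 15 tested members were higher and 1 lower, with a median log2 fold change of 0.49. B2M, the light chain of MHC class I, had 447 and 455 CPM at 1 day, against 304 and 297 CPM at 5 hours (log2 fold change 0.59, SE 0.06, edgeR adjusted p = 4.07e-10). HLA-C rose by 0.58, with the reservation that HLA genes share sequence. TAP2, a peptide transporter subunit, fell by 0.42.

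The targets of NRF2, the transcription factor that responds to oxidants and electrophiles, divided into a group that rose and a group that fell. Of the list, 14 of 22 tested members were higher and 6 lower, with a median log2 fold change of 0.35, with 7 members more than 2-fold higher and 3 more than 2-fold lower. Those that rose included the aldo-keto reductase AKR1B1, with 1686 and 1651 CPM at 1 day, against 559 and 555 CPM at 5 hours (log2 fold change 1.58, SE 0.08, edgeR adjusted p = 2.36e-19), and the quinone reductase NQO1, with 1236 and 1247 CPM at 1 day, against 574 and 551 CPM at 5 hours (log2 fold change 1.14, SE 0.06, edgeR adjusted p = 1.30e-17). AKR1C1 and AKR1C3 rose by 2.50 and 2.08, the drug exporter ABCC3 by 2.18, and the ferritin genes FTL and FTH1 by 0.82 and 0.70. The AKR1C genes are close paralogs, and their values may share reads. Those that fell were HMOX1, the sulfiredoxin gene SRXN1 (-1.31), both subunits of the enzyme that starts glutathione synthesis, GCLM and GCLC (-1.21 and -0.30), OSGIN1 (-0.84) and the thioredoxin reductase TXNRD1 (-0.49). GCLM had 206 and 202 CPM at 1 day, against 474 and 467 CPM at 5 hours (log2 fold change -1.21, SE 0.07, edgeR adjusted p = 1.67e-17), near the 210.3 and 213 CPM of attached cells at 1 day. AKR1B1 stood at 175 and 179 CPM in attached cells and was above that level at both times.

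Heat shock genes were lower after 1 day. Their products are chaperones, induced through the factor HSF1 when proteins unfold. Of the list, 2 of 16 tested members were higher and 12 lower, with a median log2 fold change of -0.50; BAG3 and HSPE1 were the 2 higher ones, and BAG3 lost its call without either 5 hour library or the second 1 day library, HSPE1 without the first 5 hour library or either 1 day library. HSPA1B had 129 and 124 CPM at 1 day, against 376 and 392 CPM at 5 hours (log2 fold change -1.61, SE 0.09, edgeR adjusted p = 5.14e-17). Its near-identical copy HSPA1A had 19.2 ± 1.21 CPM at 1 day, against 68.8 ± 6.45 CPM at 5 hours (SD, n = 2 each; log2 fold change -1.83, SE 0.19, edgeR adjusted p = 3.69e-10); both had their highest EV level at 5 hours. The constitutive chaperone HSPA8 had 1831 and 1898 CPM at 1 day, against 2885 and 2942 CPM at 5 hours (log2 fold change -0.64, SE 0.06, edgeR adjusted p = 9.67e-11). Both libraries at 1 day were lower than both at 5 hours. DNAJB4 fell by 0.64, DNAJB1 fell by 0.58, the collagen chaperone SERPINH1 fell by 0.56 and the mitochondrial chaperone HSPD1 fell by 0.54. The list took 0.911% and 0.918% at 1 day, against 1.35% and 1.36% at 5 hours of the summed FPKM, and 1.12% and 1.12% in attached cells.

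The chaperones of the endoplasmic reticulum fell in part. Of the list of the unfolded protein response, 2 of 24 tested members were higher and 10 lower, with a median log2 fold change of -0.05. HSPA5, which encodes the main chaperone of that compartment, had 502 and 486 CPM at 1 day, against 916 and 977 CPM at 5 hours (log2 fold change -0.94, SE 0.07, edgeR adjusted p = 4.40e-14). SDF2L1 fell by 1.17, MANF fell by 0.86 and XBP1, a transcription factor of the response, fell by 0.54. HSP90B1, CALR and CANX did not pass, with log2 fold changes of 0.05, 0.06 and 0.04. ATF6, a sensor of the response, rose by 0.43. Without either 5 hour library, or without the second 1 day library, 1 member was higher in place of 2.

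Promoters of HSPA8 and HSPA5 are shown because both genes were among the 5 with the largest losses of level and both hold the element named for their response. The letters searched on both strands were GAA, TTC and GAA with any 2 bases between each for the heat shock element, and CCAAT, any 9 bases and CCACG for the ER stress response element, and matches are in capitals. The windows are the 250 bases before the gene start, HSPA8 from chr11:123062137-123062386, minus strand, and HSPA5 from chr9:125241344-125241593, minus strand (GRCh38.p14, RefSeq).
HSPA8: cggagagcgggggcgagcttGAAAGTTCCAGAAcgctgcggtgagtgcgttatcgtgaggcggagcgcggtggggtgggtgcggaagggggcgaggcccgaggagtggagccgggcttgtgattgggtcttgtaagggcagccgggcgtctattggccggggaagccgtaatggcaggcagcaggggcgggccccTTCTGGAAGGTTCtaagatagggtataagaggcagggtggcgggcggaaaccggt
HSPA5: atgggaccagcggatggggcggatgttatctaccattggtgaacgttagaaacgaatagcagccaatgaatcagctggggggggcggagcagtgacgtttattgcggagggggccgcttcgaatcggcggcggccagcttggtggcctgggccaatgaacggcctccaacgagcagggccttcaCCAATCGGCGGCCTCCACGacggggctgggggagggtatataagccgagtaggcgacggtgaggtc
The heat shock element was found in 5 of 23 promoters of 15 list genes (21.7%), against 155 of 35116 promoters overall (0.441%), and all 5 genes with it, HSP90AA1, HSP90AB1, HSPA8, HSPD1 and SERPINH1, were lower at 1 day. Of all tested members of that list 12 of 16 were lower, so these 5 genes say little about the element. The ER stress element was found in 8 of 30 promoters of 23 list genes (26.7%), against 26 of 35116 (0.074%). Of the 7 genes that hold it, CRELD2, HSPA5 and XBP1 fell, and CALR, CANX, HSP90B1 and PDIA6 did not pass. Both lists were made of genes assigned to these responses, so shares above those of all promoters are not a result of this comparison.

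Genes of amino acid supply under the control of ATF4, a factor of the integrated stress response, also fell on balance. Of the list, 4 of 26 tested members were higher and 12 lower, with a median log2 fold change of -0.47; without the first library of either time 2 members were higher. The serine synthesis enzyme genes PHGDH and PSAT1 had the largest falls that passed: PHGDH had 35.8 and 35 CPM at 1 day, against 91.7 and 96.5 CPM at 5 hours (log2 fold change -1.41, SE 0.08, edgeR adjusted p = 1.03e-16). PSAT1 fell by 1.28. SHMT2, the mitochondrial enzyme that passes carbon from serine to folate, fell by 0.93, and the amino acid transporter gene SLC7A5 fell by 1.00. ATF4 itself had 133 and 143 CPM at 1 day, against 141 and 150.4 CPM at 5 hours and did not pass (edgeR adjusted p = 0.35). DDIT4, an inhibitor of mTORC1 that also answers hypoxia and glucocorticoids, ran the other way, with 99.7 and 92.3 CPM at 1 day, against 32.6 and 32.7 CPM at 5 hours (log2 fold change 1.55, SE 0.09, edgeR adjusted p = 2.14e-17). CHAC1, which breaks down glutathione, rose by 1.10.

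Hypoxia and glycolysis genes rose broadly. Many of them are targets of HIF, the factor stabilised at low oxygen. Of the list, 24 of 32 tested members were higher and 2 lower, with a median log2 fold change of 0.55; the 2 lower members were P4HA2 (-0.24) and HK1 (-0.18), and without the second 5 hour library they were at -0.18 and -0.15 and neither passed. P4HA2 also lost its call without the second 1 day library and HK1 without the first. VEGFA, the endothelial growth factor, had 610.3 and 601 CPM at 1 day, against 158 and 163 CPM at 5 hours (log2 fold change 1.92, SE 0.07, edgeR adjusted p = 2.30e-23). BNIP3, a mitophagy receptor, had 217 and 222 CPM at 1 day, against 78.3 and 81 CPM at 5 hours (log2 fold change 1.46, SE 0.07, edgeR adjusted p = 2.11e-18). LDHA, lactate dehydrogenase, had 1446 and 1439 CPM at 1 day, against 712 and 686 CPM at 5 hours (log2 fold change 1.05, SE 0.06, edgeR adjusted p = 1.77e-17). For all 3 the libraries of the 2 times lay far apart. NDRG1 rose by 1.02, the aldolase ALDOC by 0.97, the glucose transporters SLC2A3 and SLC2A1 by 0.95 and 0.58, and the collagen prolyl hydroxylase P4HA1 by 0.85. BNIP3 and LDHA at 5 hours were below the attached cells, which had 170.5 and 172 CPM of BNIP3 and 1512 and 1500.0 CPM of LDHA. VEGFA in attached cells, with 92.6 and 92.8 CPM, was below both times. The list as a whole took 1.04% and 1.03% at 1 day, against 0.807% and 0.832% at 5 hours of the summed FPKM, and 1.26% and 1.26% in attached cells.

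The promoters of BNIP3 and LDHA are printed because these genes rose and hold the short core of the hypoxia response element, ACGTG, searched on both strands and given in capitals, where overlapping matches on opposite strands run together. The windows are again 250 bases before the gene start, BNIP3 from chr10:131981924-131982173, minus strand, and LDHA, which has 2 listed promoters, from chr11:18394313-18394562, plus strand (GRCh38.p14, RefSeq).
BNIP3: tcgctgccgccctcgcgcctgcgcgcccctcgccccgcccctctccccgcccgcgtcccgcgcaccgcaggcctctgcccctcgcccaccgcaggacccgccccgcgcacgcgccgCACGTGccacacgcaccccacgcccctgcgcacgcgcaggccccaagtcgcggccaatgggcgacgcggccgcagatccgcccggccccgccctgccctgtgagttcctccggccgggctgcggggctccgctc
LDHA: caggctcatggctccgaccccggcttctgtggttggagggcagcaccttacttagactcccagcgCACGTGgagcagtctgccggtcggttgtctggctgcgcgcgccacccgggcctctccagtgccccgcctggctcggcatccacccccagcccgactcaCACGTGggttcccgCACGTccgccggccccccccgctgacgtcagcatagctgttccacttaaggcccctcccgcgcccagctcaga
The core is common: 21 of 48 promoters of 28 list genes held it (43.8%), against 6501 of 35116 (18.5%). This list too was made of genes assigned to the response.

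Respiratory chain genes encoded in the nucleus rose slightly: 17 of 30 tested members were higher and 1 lower, with a median log2 fold change of 0.27. SDHC, a subunit of complex II, had 115 and 115 CPM at 1 day, against 76.5 and 80.0 CPM at 5 hours (log2 fold change 0.55, SE 0.06, edgeR adjusted p = 2.82e-10). The complex IV genes COX5B and COX7C rose by 0.53 and 0.42, and the ATP synthase gene ATP5F1A by 0.42. CYC1 of complex III fell by 0.35. Of the 13 messenger RNAs of the mitochondrial genome, 9 rose and none of them fell, with a median log2 fold change of 0.40; by limma on log2(FPKM + 1) 5 rose. MT-CO1 had 12286 and 12939 CPM at 1 day, against 8168 and 8010.5 CPM at 5 hours (log2 fold change 0.64, SE 0.11, edgeR adjusted p = 1.59e-05). MT-ND5 had 1847 and 2013 CPM at 1 day, against 1169 and 1077 CPM at 5 hours (log2 fold change 0.78, SE 0.13, edgeR adjusted p = 5.38e-06). MT-ND2 and MT-CYB had nearly equal levels at both times, at log2 fold changes of -0.01 and 0.01. MT-ND6, the only one encoded on the other strand, rose by 1.03, and since the sources used here do not give the strand setting of the counting, reads of its opposite strand cannot be told apart from its own. These mitochondrial RNAs are the same whose summed share was given above as a sign of cell and RNA quality.

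MALAT1 and NEAT1, long non-coding RNAs kept in the nucleus, are a further sign of how much cytoplasmic RNA a library holds. MALAT1 had 399 and 433 CPM at 1 day, against 184 and 172 CPM at 5 hours (log2 fold change 1.23, SE 0.09, edgeR adjusted p = 4.71e-14). NEAT1 had 995 and 1026 CPM at 1 day, against 744 and 695 CPM at 5 hours (log2 fold change 0.49, SE 0.12, edgeR adjusted p = 9.67e-04). Both were higher at 1 day. The list they belong to also holds long non-coding RNAs that reach the cytoplasm, and of its 8 members tested, 4 were higher and 2 lower, the lower ones being SNHG1 (-0.64) and GAS5 (-0.52), spliced host genes of small nucleolar RNAs. The list took 0.12% and 0.12% at 1 day, against 0.114% and 0.108% at 5 hours of the summed FPKM. Its part in the other results was not tested.

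Lipid genes rose modestly, and sterol exporters strongly. Of the cholesterol list, 13 of 26 tested members were higher and 0 lower, with a median log2 fold change of 0.18. The synthesis enzymes LSS and TM7SF2 rose by 0.59 and 0.86, and ABCA1, which exports cholesterol, had 13.7 and 14.4 CPM at 1 day, against 4.53 and 6.14 CPM at 5 hours (log2 fold change 1.40, SE 0.15, edgeR adjusted p = 1.32e-09), beside its relative ABCG1 described above. The regulator INSIG1 did not pass (-0.07). Of the fatty acid list, 9 of 15 tested members were higher and 1 lower, with a median log2 fold change of 0.34. ME1, malic enzyme, a source of NADPH, had 90.3 and 96.2 CPM at 1 day, against 43.2 and 40.1 CPM at 5 hours (log2 fold change 1.16, SE 0.09, edgeR adjusted p = 4.88e-13). The elongase gene ELOVL6 rose by 0.78, the desaturase gene SCD by 0.51 and the transcription factor gene SREBF1 by 0.70. FASN, fatty acid synthase, had 1452 and 1419 CPM at 1 day, against 1445 and 1561 CPM at 5 hours and did not pass (edgeR adjusted p = 0.46).

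Of the autophagy and lysosome list, 17 of 28 tested members were higher and 0 lower, with a median log2 fold change of 0.22. The protease gene CTSD had 571 and 562 CPM at 1 day, against 184 and 214 CPM at 5 hours (log2 fold change 1.51, SE 0.07, edgeR adjusted p = 2.36e-19). CTSA rose by 0.64 and GABARAPL2, a component of autophagosomes, by 0.68. The initiating kinase gene ULK1 and the autophagosome marker gene MAP1LC3B did not pass, at -0.12 and -0.10.

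Cell cycle genes fell nearly as a block, by modest amounts. Of the G1/S and replication list, 1 of 34 tested members were higher and 26 lower, with a median log2 fold change of -0.37. UHRF1, which maintains DNA methylation at replication, had 152 and 155 CPM at 1 day, against 249 and 265 CPM at 5 hours (log2 fold change -0.75, SE 0.05, edgeR adjusted p = 3.49e-14). The origin subunit ORC6 fell by 0.71, the licensing factor CDT1 fell by 0.68 and the ribonucleotide reductase subunit RRM2 fell by 0.67. CCND1, a D-type cyclin gene, had 678 and 711 CPM at 1 day, against 665 and 697 CPM at 5 hours and did not pass (edgeR adjusted p = 0.745). Without the second library of either time no member was called higher. Of the G2/M list, 0 of 32 tested members were higher and 29 lower, with a median log2 fold change of -0.43. CENPA, the centromeric histone, had 31.6 and 31.8 CPM at 1 day, against 60.8 and 61.4 CPM at 5 hours (log2 fold change -0.95, SE 0.08, edgeR adjusted p = 8.94e-13). AURKA, a spindle kinase, had 197 and 189.6 CPM at 1 day, against 335 and 332 CPM at 5 hours (log2 fold change -0.79, SE 0.05, edgeR adjusted p = 1.07e-15). BIRC5 fell by 0.90, and the kinase gene AURKB fell by 0.76. Both libraries at 1 day lay below both at 5 hours for these genes, and MKI67, the proliferation marker, fell by 0.60. Of the CDK inhibitors, none rose: CDKN1A, which encodes p21, had 93.2 and 90.8 CPM at 1 day, against 111 and 108 CPM at 5 hours (log2 fold change -0.25, SE 0.06, edgeR adjusted p = 0.00131). CDKN1B had 46.1 and 44.5 CPM at 1 day, against 42.6 and 44.6 CPM at 5 hours (edgeR adjusted p = 0.661).

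The machinery of ribosome production fell with them. Of the ribosome biogenesis list, 0 of 26 tested members were higher and 23 lower, with a median log2 fold change of -0.45. NOLC1, a nucleolar chaperone, had 242 and 244 CPM at 1 day, against 399 and 396 CPM at 5 hours (log2 fold change -0.71, SE 0.05, edgeR adjusted p = 4.71e-14). The pseudouridine synthase DKC1 fell by 0.66, NPM1, nucleophosmin, fell by 0.51 and the helicase DDX21 fell by 0.51. Of the translation factors, 2 of 24 tested members were higher and 15 lower, with a median log2 fold change of -0.20: EIF4EBP1, an inhibitor of cap-dependent translation, fell by 1.12, EIF5 fell by 0.90, EIF3B fell by 0.48 and EEF2 fell by 0.44, against the rise of EEF1A1. Of the ribosomal proteins, 1 of 40 tested members were higher and 18 lower, with a median log2 fold change of -0.13, a small shift whose count is sensitive: without the second 5 hour library 0 members were higher and 8 lower, without the second 1 day library 9 were lower, and with only the 4 libraries in the fit 31 were. RPS2 had 864 and 837 CPM at 1 day, against 1171 and 1211 CPM at 5 hours (log2 fold change -0.49, SE 0.06, edgeR adjusted p = 3.17e-08). Ribosomal protein genes have many pseudogenes that can take reads, so single values are uncertain. The 4 proteasome genes that fell included PSMD2 (-0.64), PSMD11 (-0.56) and PSMD12 (-0.50), while 3 of 27 rose and the list median was -0.01; without the second 1 day library none was called higher.

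**Figure D3:**
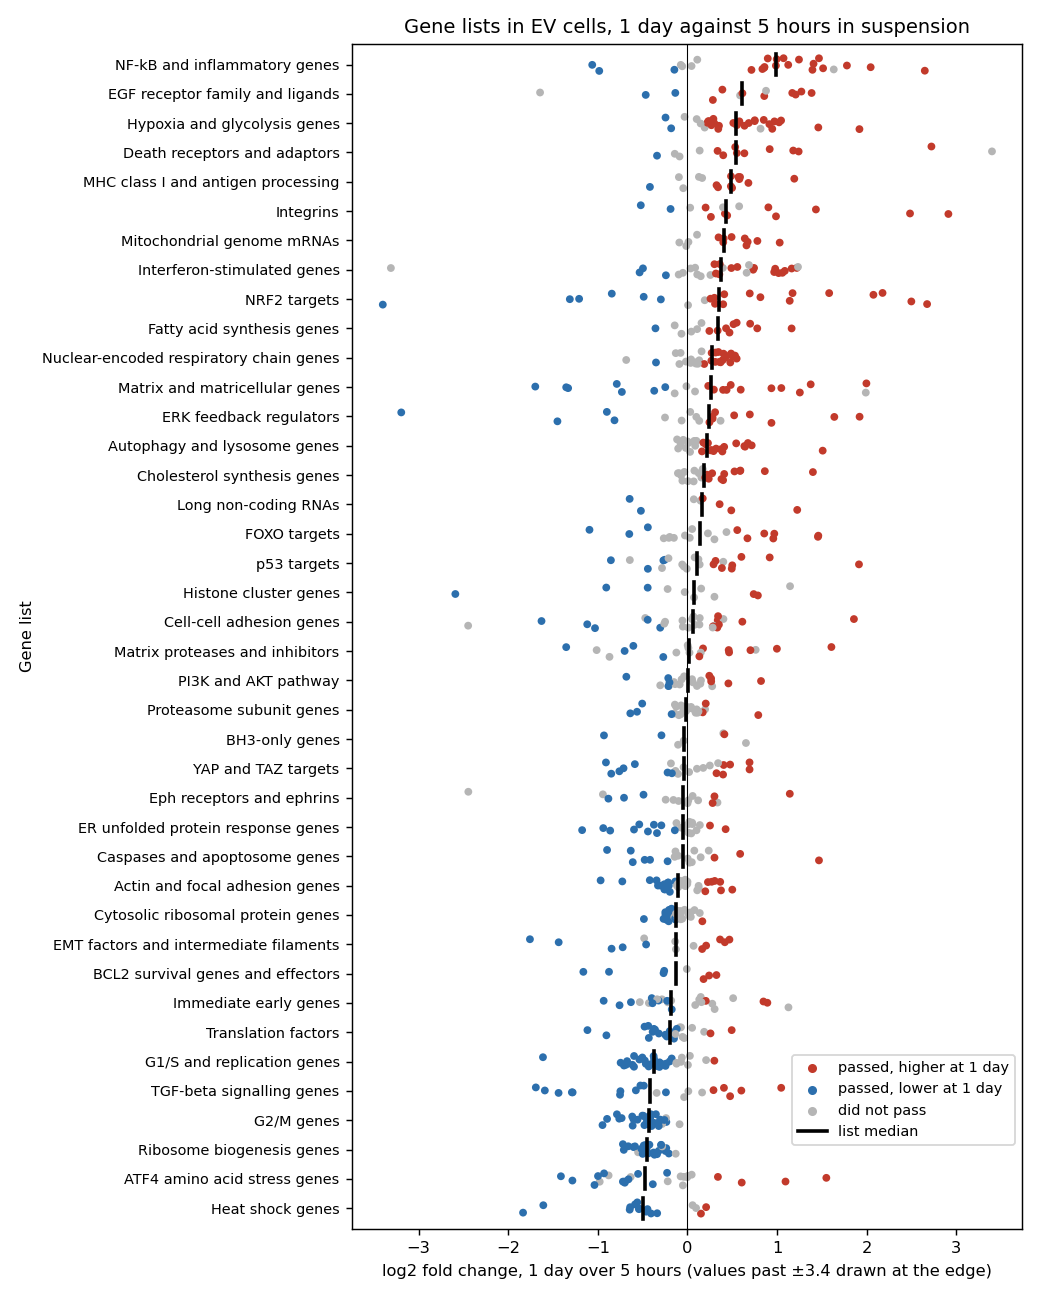
Log2 fold change (1 day over 5 hours) of each tested member of the gene lists drawn, ordered by list median (black bars). The CDK inhibitors and the lists of markers of other cell types and of the line are not drawn. The most extreme values are placed at the edge of the axis. Red dots passed and were higher at 1 day, blue dots passed and were lower, and grey dots did not pass. NF-kB and inflammatory genes lie at the top with a median of 0.99, and heat shock genes at the bottom with -0.50.

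The same time step was measured in the non-apoptotic fraction of Tpm2.1 cells, which shares no library with the EV comparison, and the difference of the 2 steps was tested in the same fit. In those cells 7014 of 17191 genes passed (40.8%), 3737 higher (21.7%) and 3277 lower (19.1%) at 1 day. The change differed between EV and non-apoptotic Tpm2.1 cells for 3619 genes (21.1%), 1844 with a more positive change in EV cells (10.7%) and 1775 with a more negative one (10.3%). The lines differ in Tpm2.1 and in the Annexin V sort, and these cannot be told apart in the differences. The mitochondrial messenger RNAs took 1.37% and 1.58% of counts in non-apoptotic Tpm2.1 cells at 1 day and 1.62% and 1.44% at 5 hours, so the gain of that share seen in EV cells was not seen there.

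HMOX1 had the most negative difference (-2.98, SE 0.22, edgeR adjusted p = 9.52e-13). Non-apoptotic Tpm2.1 cells had 48.8 and 27.5 CPM at 1 day, against 90.5 and 80.4 CPM at 5 hours, so its level fell in both lines, from a lower start there. SRXN1 fell in EV cells and rose in the other line, with 12.7 and 14.2 CPM at 1 day, against 6.94 and 10.00 CPM at 5 hours (difference -1.97, SE 0.23, edgeR adjusted p = 4.48e-08). ATOH8, a basic helix-loop-helix factor, had 10.4 and 9.91 CPM at 1 day, against 17 and 19.3 CPM at 5 hours in EV cells, while non-apoptotic Tpm2.1 cells had 14.2 and 10.2 CPM at 1 day, against 6.38 and 5.98 CPM at 5 hours (difference -1.80, SE 0.28, edgeR adjusted p = 6.21e-06). FZD8, a Wnt receptor, and MMP3, a matrix metalloproteinase, changed mainly in the other line: FZD8 had 77.4 and 78.8 CPM at 1 day, against 89.3 and 92 CPM at 5 hours in EV cells, while non-apoptotic Tpm2.1 cells had 241 and 237 CPM at 1 day, against 80.7 and 83 CPM at 5 hours (difference -1.76, SE 0.10, edgeR adjusted p = 3.13e-15), its small fall in EV cells lost its call when any 1 EV library was left out, and the difference of MMP3 was -1.82. GPR89B, at a difference of -2.34, has a near-identical copy, and its libraries at 5 hours varied by more than 2-fold, with 2.94 and 5.14 CPM at 1 day, against 18.2 and 8.05 CPM at 5 hours. Without the first 5 hour library the log2 fold change of GPR89B in EV cells was -0.95 and no longer passed, and the difference was -1.63 (edgeR adjusted p = 0.0159).

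SPNS2, which exports sphingosine 1-phosphate, had 55.1 and 58.4 CPM at 1 day, against 32.2 and 28.6 CPM at 5 hours in EV cells, while non-apoptotic Tpm2.1 cells had 6.3 and 7.1 CPM at 1 day, against 27.1 and 23.5 CPM at 5 hours (difference 2.80, SE 0.16, edgeR adjusted p = 1.12e-15), so it rose in EV cells and fell in the other line. VIPR1, a neuropeptide receptor, had 28.6 and 30.3 CPM at 1 day, against 5.21 and 6.4 CPM at 5 hours in EV cells and a difference of 2.72. The amino acid transporter SLC38A4, the inhibin subunit INHBB and the receptor ROR1 likewise rose in EV cells, by 1.57, 1.22 and 1.56, and fell in the other line, at -0.82, -1.08 and -0.62, with differences of 2.39, 2.30 and 2.17. GPAT2 was also among the 6 highest differences but had 0 counts in both EV libraries at 5 hours, and 4 and 12 at 1 day, so no fold is given for it.

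Among the lists, 9 of the 10 TGF-beta signalling genes whose difference passed were more negative in EV cells, and ID1, with 450.0 and 362 CPM at 1 day, against 367 and 367 CPM at 5 hours in non-apoptotic Tpm2.1 cells, had a difference of -1.74. The type II receptor gene TGFBR2 rose by 1.03 there and did not differ by this test (difference 0.01, SE 0.07, edgeR adjusted p = 0.928). All 17 of the G2/M genes whose difference passed were less negative in EV cells, and the list's median log2 fold change was -0.43 in EV cells and -0.75 in non-apoptotic Tpm2.1 cells. Of the hypoxia and glycolysis genes, 16 differed, 13 of them more positive in EV cells, with list medians of 0.55 and 0.39. IL1B rose in both lines, with 1079 and 1102 CPM at 1 day, against 131 and 128 CPM at 5 hours in non-apoptotic Tpm2.1 cells (difference -1.02, SE 0.15, edgeR adjusted p = 3.70e-06). For the mitochondrial genome list, 6 members differed, all more positive in EV cells.

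**Figure D4:**
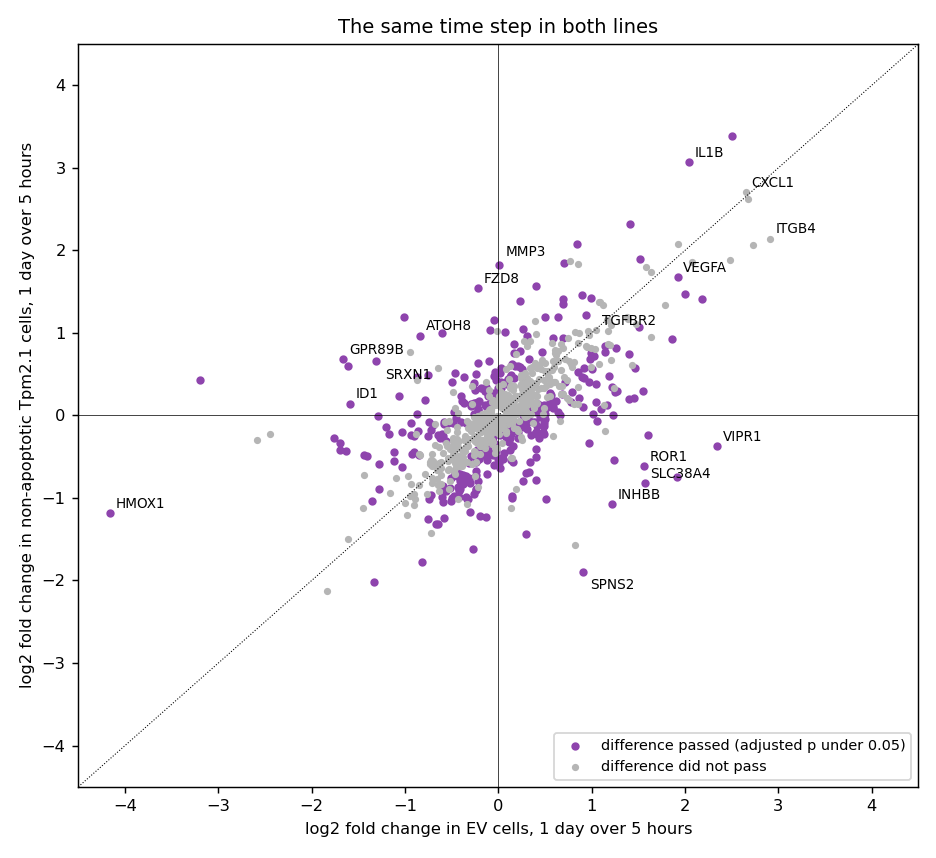
Log2 fold change from 5 hours to 1 day in EV cells (x axis) against that in non-apoptotic Tpm2.1 cells (y axis) for the list members and named genes with at least 1 CPM in a group. Purple points passed the test of the difference, grey points did not, and the dotted line marks equal change. HMOX1 lies far to the left, and SPNS2, INHBB and SLC38A4 lie where EV cells rose and the other line fell.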

How the data were processed

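Per the labels' protocols, total RNA from a column kit was enriched for poly-A transcripts on beads and reverse-transcribed from random hexamers. The authors deposited raw counts and FPKM values for 58735 genes in separate tables. The submitters' processing notes name hg38, and DESeq2 without a role; the sources used here give no aligner, counting tool or strand setting. Identifiers matched GENCODE 29.

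Counts of all 28 libraries, in 14 groups, were fitted with edgeR 4.0.16 (R 4.3.3; TMM, filterByExpr, quasi-likelihood F test, 14 residual degrees of freedom, Benjamini-Hochberg threshold 0.05, over 17191 genes). The SE is the absolute log2 fold change over the square root of F, an approximation. CPM are TMM-scaled. Replicate counts of either time differed by more than sampling noise (chi-square per degree of freedom 1.75 at 1 day and 2.45 at 5 hours).

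Members and the 45 gene lists were chosen with earlier results of these data known. Genes named are the 12 highest and 12 lowest passing protein-coding changes with at least 10 CPM in a group and no overlap, the 5 largest gains and losses of CPM, the 4 members of smallest p of each list with at least 1 CPM in a group and all members of lists up to 20, TPM2, EPHA2, AKT1 and AKT2, and the 6 highest and 6 lowest differences between lines; other list members named were chosen after their values were seen, and some genes the rule gives are not reported here. Alternatives were DESeq2 1.42.0, its size factors, no low-count filter, protein-coding genes alone, fewer libraries, a replicate block, a GC correction, limma 3.58.1 on log2(FPKM + 1), and each library left out.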

Additional observations from a re-analysis of the deposited data

Results flagged for a closer look

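The results below are genes whose change from 5 hours to 1 day differed between EV cells and non-apoptotic Tpm2.1 cells by the test of the difference itself (edgeR, adjusted p below 0.05), given as EV minus non-apoptotic Tpm2.1 on the log2 scale. A more negative change in EV cells was found for HMOX1 (-2.98), GPR89B (-2.34), SRXN1 (-1.97), MMP3 (-1.82), ATOH8 (-1.80), FZD8 (-1.76), ID1 (-1.74) and IL1B (-1.02). A more positive change in EV cells was found for SPNS2 (2.80), VIPR1 (2.72), SLC38A4 (2.39), INHBB (2.30) and ROR1 (2.17). All were picked from these data, ID1 and IL1B from the lists and the others as the largest differences. The same test passed for 3619 of 17191 genes (21.1%). A kept call in other fits of the same data is therefore no separate support. All 13 kept the call and the direction of the difference in every alternative run, including those without any 1 EV or Tpm2.1 library. MMP3 was low in EV cells, with 46 and 82 counts at 1 day, against 63 and 50 counts at 5 hours, so its EV change has little precision. The Annexin V sort was applied to the Tpm2.1 cells and not to the EV cells, so line and sort cannot be told apart in these differences.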

How the results depend on the processing

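Of 6778 genes that passed, DESeq2 (6592 in all), edgeR with the size factors of DESeq2 (6853), all genes unfiltered (6269), only protein-coding genes (6516), the 10 EV libraries alone (7566), the 4 libraries alone (7838), all but the apoptotic libraries (7529), the GC correction (7002) and limma on log2(FPKM + 1) (6602) gave numbers within 1.5 times, and no gene called in both fits had the opposite direction. Leaving out 1 library gave 5137 to 5470. The 966 genes past 2-fold became 242 with limma on log2(FPKM + 1), where the pseudocount of 1 shrinks low genes, and 806 to 893 without 1 library. The replicate numbers did not pair the samples (correlation of replicate differences between 1 day and 5 hours 0.03). With them as a block 7375 genes passed. That fit used the EV libraries in suspension alone and tested 15786 genes, so the number does not show the effect of the block by itself. The difference between lines passed for 2480 to 4483 genes across its alternatives, those without a Tpm2.1 library having been chosen after seeing the data.

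Of the log2 fold changes of genes named under all alternatives, none reversed; 3948 kept their side of the threshold, 54 lost and 28 gained a call. List medians moved beyond their spread between library pairs in 162 cases and not in 512: without the second 1 day library the EGF list stood at 0.32, without the first 5 hour library the ATF4 list stood at -0.30, and without the first 1 day library the BH3-only list stood at 0.10. The proteasome list had 8 lower members, in place of 4, with the 4 libraries alone. Depths of 13671309 to 20278090 counts limit genes of a few CPM.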

Other observations

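Genes for zinc finger proteins of the ZNF series, many of them transcriptional repressors, rose more often than they fell: of 477 tested, 122 were higher at 1 day and 50 lower, with a median log2 fold change of 0.15, against 0.02 for all genes tested. Of all 17191 genes tested, 3582 (20.8%) were higher and 3196 (18.6%) lower, so the share of ZNF genes that rose was near that of all genes. The ZNF genes were not a list of the comparison and were picked after seeing the data.

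Of 11 histone genes tested, 2 were higher (1 to 3 without 1 library) and 3 lower; the replication-independent linker histone H1F0 had 339 and 323 CPM at 1 day, against 192 and 191 CPM at 5 hours (log2 fold change 0.79, SE 0.06, edgeR adjusted p = 3.74e-14), and H2AFX fell by 0.91. Among all genes tested, 20.8% were higher and 18.6% lower, so the counts of histone genes set them little apart. Poly-T selection takes few transcripts of replication-dependent histones, which lack a poly-A tail.

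Markers of other cell types were mixed. Of 12 immune markers 2 passed the filter on low counts, CSF1R (1.61 and 1.52 CPM at 1 day, against 1.86 and 1.91 CPM at 5 hours) and CD14 (3.15 and 3.43 CPM at 1 day, against 1.37 and 2.31 CPM at 5 hours). Of 10 endothelial markers 5 passed it, and PECAM1, an endothelial adhesion gene, had 6.72 and 5.24 CPM at 1 day, against 1.99 and 3.17 CPM at 5 hours (log2 fold change 1.20, SE 0.25, edgeR adjusted p = 1.34e-04), while CDH5 had at most 2 counts in any of the 4 libraries. Of 12 luminal markers 10 passed it, 6 of them higher and 1 lower at 1 day (0 without the second 5 hour or the first 1 day library), with a median log2 fold change of 0.42. Of the luminal markers, 2 were more than 2-fold higher at an adjusted p below 0.05 (edgeR). The part of these markers of other cell types in the other results was not tested.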
